A study of Mus musculus with 4 samples.

Results

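The genes described here encode the machinery that moves secreted proteins out of the cell and the enzymes that modify collagen on the way. They were chosen by gene name: the catalytic subunits of signal peptidase, the Sec61 channel and its partners, the Ssr genes, lectin chaperones and disulfide isomerases, collagen prolyl and lysyl hydroxylases, 5 Fkbp genes, the COPII and COPI vesicle coats, the Sec22 and Tmed genes, the KDEL receptors and Pcolce. The name patterns matched 74 of 25965 genes in the table. Mia3, also named by the rule, is not analysed here. Some symbols of the table are older names, Copg for Copg1, Lepre1 for P3h1, Leprel1 for P3h2 and Leprel2 for P3h3.

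RNA sequencing was done on 4 stranded mRNA libraries of cultured vascular smooth muscle cells of wild type C57Bl/6 mice, which were healthy males aged 8 to 14 weeks. Cells of the aortic medial layer were freed with collagenase and elastase, grown in DMEM with fetal calf serum and passaged 3 to 5 times. All 4 libraries form 1 group, so nothing here compares treatments. No label says whether they came from separate animals or cultures, so the spread between them may be technical, and the model is limited to passaged cells in serum. In bulk RNA, fewer cells of a type and less RNA per cell cannot be told apart.

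A protein with a signal peptide enters the endoplasmic reticulum (ER) through the Sec61 channel, loses its signal peptide to signal peptidase and folds with the help of chaperones and disulfide isomerases. Procollagen chains are in addition hydroxylated on prolines and lysines and held by collagen-specific helpers before they leave in COPII-coated carriers. COPI coats and KDEL receptors bring escaped ER proteins back, and the propeptides are cut off outside the cell, a step that Pcolce speeds up. Smooth muscle cells are the main source of collagen in the aortic media.

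Promoter sequences are shown first because genes of this machinery are known targets of Atf6 and Xbp1, the transcription factors of the unfolded protein response. RefSeq promoters on GRCm38.p6, running from 250 bases before to 50 bases after the start site, were found for 64 of the 74 genes (71 promoters). Both strands were searched for 2 published elements. The ER stress response element is CCAAT, any 9 bases and then CCACG, and the unfolded protein response element is TGACGTGG. The first was present in 3 of 71 promoters (4.23%), compared with 0.119% of all 32851 promoters and 15 of the 12044 promoters of detected genes. These were the promoters of the lectin chaperones Calr and Canx and of the disulfide isomerase Pdia6, printed on the gene's strand from 5′ to 3′ with the element in capitals. In Calr the element lies on the opposite strand.
Calr, chr8:84847055-84847113, minus strand: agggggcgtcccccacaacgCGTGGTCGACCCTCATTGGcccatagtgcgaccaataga
Canx, chr11:50325780-50325838, minus strand: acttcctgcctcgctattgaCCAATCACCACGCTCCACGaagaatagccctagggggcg
Pdia6, chr12:17266471-17266529, plus strand: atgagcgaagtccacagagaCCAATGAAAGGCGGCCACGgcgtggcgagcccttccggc

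The unfolded protein response element was present in 6 of 71 promoters (8.45%), compared with 0.676% of all promoters and 0.864% of those of detected genes. All 6 genes act in transport between ER and Golgi. Copb1 and Copb2 encode COPI subunits, Kdelr3 a retrieval receptor, and Sec16b, Sec23a and Sec24d components of COPII budding. The element is in capitals below and lies on the opposite strand in Copb1, Copb2 and Kdelr3. Its middle lay between 40 bases before the start site, in Sec16b, and 10 bases after it, in Sec23a.
Copb1, chr7:114254689-114254738, minus strand: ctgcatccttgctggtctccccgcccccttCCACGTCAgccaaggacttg
Copb2, chr9:98563694-98563743, plus strand: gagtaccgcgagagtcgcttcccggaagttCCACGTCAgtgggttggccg
Kdelr3, chr15:79516348-79516397, plus strand: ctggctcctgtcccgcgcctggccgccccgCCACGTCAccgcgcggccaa
Sec16b, chr1:157506722-157506771, plus strand: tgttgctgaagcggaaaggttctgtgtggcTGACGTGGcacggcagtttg
Sec23a, chr12:59011992-59012041, minus strand: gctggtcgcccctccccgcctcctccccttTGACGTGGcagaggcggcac
Sec24d, chr3:123267440-123267489, plus strand: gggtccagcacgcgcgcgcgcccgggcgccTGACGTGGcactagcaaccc

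The core GACGTG, which every unfolded protein response element contains, was present in 23 of 71 promoters (32.4%), against 6.38% of all promoters and 9.41% of those of detected genes. CCACG, the last part of the ER stress response element, was far more common, in 70.4% of these promoters, 32.8% of all and 47.3% of those of detected genes. The 23 genes with the core had a median log2 level of 7.62, and the 40 detected genes with a promoter but without it a median of 7.29. Neither median is divided by exon length, so no difference in level between these sets is read from them. A match describes the letters in the window and not binding of a factor.

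Levels are log2 scaled read counts as deposited, where 0 corresponds to 30, 29, 22 and 30 reads in libraries 1 to 4, and errors are SD over the 4 libraries (n = 4). Statements on which library was highest or lowest are on this scale. A gene counted as detected with a level of at least 0 in 4 of 4 libraries. Of the 74 genes, 72 were detected (97.3%), compared with 47.4% of all genes in the table. The exceptions were Tmed6 and Tmed11, p24 family genes with no reads in any library, which allows up to 3 reads in each. The median level of the 72 genes was 7.39, against 5.09 for all detected genes, and 63 of the 72 lay above that value. Together they took 1.97% of the reads on genes in library 1 (95% Wilson interval 1.9655 to 1.9727), 1.90% in library 2, 1.45% in library 3 (1.4433 to 1.4506) and 1.56% in library 4. Calr, P4hb and Pdia3 alone made up 33.0% ± 3.66 of those reads. The Wilson intervals cover counting error only, and over the 4 libraries the share of the 72 genes was 1.72% ± 0.26.

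Sequencing depth was similar in 3 libraries and lower in library 3, with 56265771, 55521916, 40342561 and 56793195 recovered reads on genes in libraries 1 to 4. Mitochondrial genes took 0.0653% of the reads in library 1 and 0.382% in library 3. Marker genes were examined beside the labelled cell type: 6 of 6 smooth muscle markers were detected, among them Acta2 (12.18 ± 1.05) and Myh11 (7.44 ± 1.65). Of 6 fibroblast markers 5 were detected, of 5 endothelial markers 3, and of 6 leukocyte markers none, with Cd3e and Cd79a without reads in any library. Of all genes 47.4% were detected. In libraries 1 to 4 the fibroblast marker Serpinf1 had levels of 8.53, 8.29, 4.86 and 4.18, and Dpt of 7.15, 7.02, 2.32 and 1.92. Myh11 had levels of 7.12, 5.33, 8.08 and 9.24. All 6 fibroblast markers were higher in libraries 1 and 2 than in 3 and 4. These levels are not divided by exon length. The markers thus do not settle the cell type, and the share of other cells was not tested. Of the 74 genes, 19 overlap another gene of the table, which leaves the origin of reads in the shared stretch uncertain; the overlapping gene is named where its level comes near, as for Plod3 with Znhit1 (mean level 8.19).

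Levels of different genes are compared below only after division by the length of their exons (log2 scaled reads per kb of exon, exon lengths from GENCODE M21), and each such value is named as per kb. On this scale the folding chaperones had the highest role median, 7.86 ± 0.43, followed by Pcolce (7.72 ± 0.10), the KDEL receptors (6.98 ± 0.09), the COPI coat (6.28 ± 0.34) and the collagen hydroxylases (5.92 ± 0.57). The translocon genes had a median of 5.70 ± 0.27 per kb, and the ER Fkbp genes and p24 cargo receptors each 5.46 (SD 0.49 and 0.24). Signal peptidase (4.13 ± 0.14), COPII and ER exit genes (3.37 ± 0.52) and the Sec22 genes (2.32 ± 0.21) were lowest. These SDs include the shift between libraries, so they do not measure how far roles differ within a library. The folding chaperones lay above Pcolce in libraries 1, 2 and 4 and below it in library 3. The translocon genes lay above the p24 genes in each library. Apart from COPI against COPII, role medians were not tested against each other. The order of neighbouring roles shifts with the length used, and per kb of the longest transcript the Fkbp genes (6.25) stood above the translocon genes (6.14).

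**Figure D1:**
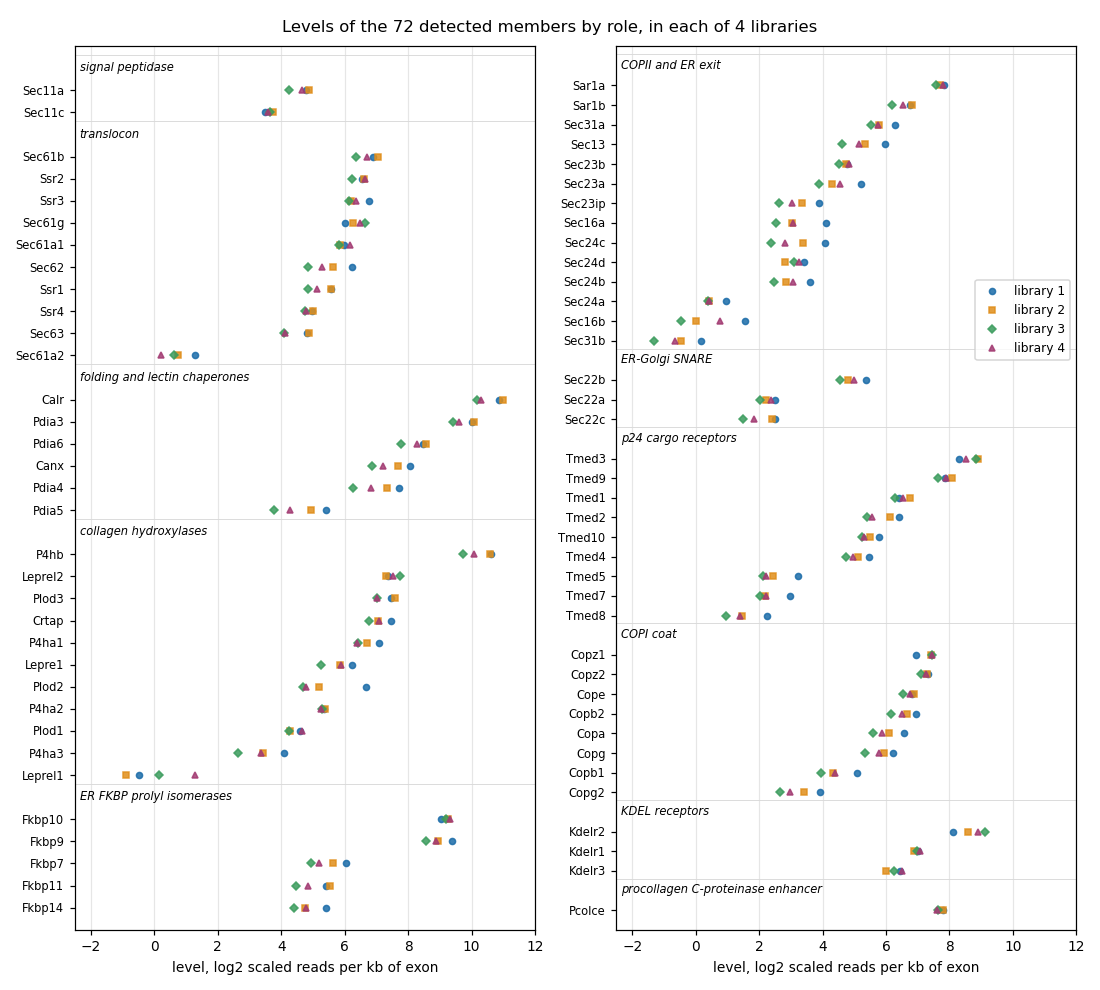
Level of each of the 72 detected genes per kb of exon (log2, x axis) in libraries 1 to 4 (coloured symbols), ordered by mean within each role. Roles overlap widely: the collagen hydroxylases run from Leprel1 at 0.01 to P4hb at 10.25, and COPII genes from Sec31b at -0.57 to Sar1a at 7.73.

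At the entrance to the ER, the 3 subunits of the Sec61 channel were at similar levels per kb, from 5.96 for Sec61a1, the pore-forming subunit (chromosome 6, 88503601 to 88518905, GRCm38), to 6.75 for Sec61b, a 1.73-fold span. The other gene for the pore subunit, Sec61a2, was far lower at 0.71 per kb, and Sec61a1 exceeded it by 5.25 ± 0.52 (log2, 38.0-fold) with the same sign in 4 of 4 libraries. Sec61a2 overlaps Nudt5, which had a mean level of 6.74. The Ssr genes, whose products form the translocon-associated protein complex, spanned 3.10-fold, from Ssr4 at 4.87 to Ssr2 at 6.51 per kb. Sec62, a channel partner for proteins that enter after translation, had levels of 8.35, 7.74, 6.95 and 7.39 in libraries 1 to 4. It was highest in library 1 (53.6% of all detected genes were) and lowest in library 3 (52.9% of all). Of the signal peptidase subunits, Sec11a was 4.64 and Sec11c 3.61 per kb.

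Such within-library differences were tested for 31 gene or list contrasts by flipping the signs of the 4 differences in all 16 ways (exact permutation test, two-sided). With 4 libraries no contrast can pass 0.05 in this test, and the size, SD and sign count carry each comparison. The sign was the same in 4 of 4 libraries for 28 contrasts, all at the smallest p the test allows (0.138 here after Benjamini-Hochberg adjustment over the 31), and 18 of these exceeded 2 on the log2 scale.

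**Figure D2:**
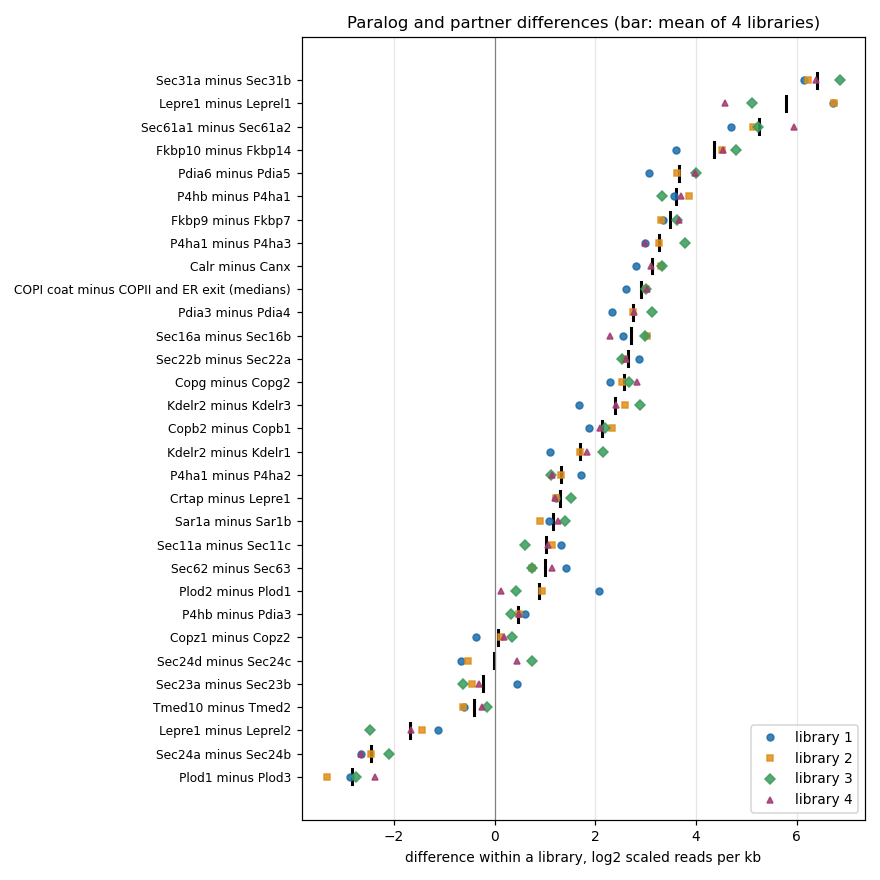
Difference in level per kb (log2, x axis) between paralogs or partner genes within each library (symbols) and the mean over 4 libraries (bar), sorted by the mean. Most contrasts lie wholly on one side of 0; Sec24d minus Sec24c, Sec23a minus Sec23b and Copz1 minus Copz2 have symbols on both sides.

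Calr, the soluble calcium-binding lectin chaperone (chromosome 8, 84841850 to 84846934), was the highest of all 72 genes per kb, at 10.58. It exceeded its membrane-bound relative Canx by 3.13 ± 0.25 (8.77-fold). Calr levels were 12.39, 12.53, 11.70 and 11.82 in libraries 1 to 4. Pdia3, the disulfide isomerase that works with both lectins, exceeded Pdia4 by 2.74 ± 0.33 (6.68-fold), and Pdia6 exceeded Pdia5 by 3.67 ± 0.44 (12.7-fold). Pdia5 was the lowest chaperone at 4.60 per kb, with levels of 6.88, 6.41, 5.24 and 5.75. Pdia4 had levels of 8.96, 8.60, 7.54 and 8.10. Both had the order library 1, 2, 4, 3 from high to low, as did Canx with 10.30, 9.92, 9.08 and 9.43. The median deviation of all detected genes from the gene mean had the same order (0.32, 0.11, -0.28 and -0.10 in libraries 1 to 4).

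P4hb encodes protein disulfide isomerase, which is also the non-catalytic subunit of collagen prolyl 4-hydroxylase (chromosome 11, 120560298 to 120573253). Its levels were 12.14, 12.08, 11.24 and 11.59, and at 10.25 per kb it was the highest collagen hydroxylase gene. It differed from Pdia3 by 0.47 ± 0.12 (1.39-fold), 1 of the smallest contrasts. The catalytic alpha subunits were much lower. P4ha1 had levels of 9.11, 8.74, 8.45 and 8.41, P4ha2 of 8.00, 8.03, 7.92 and 7.88, and P4ha3 of 5.73, 5.08, 4.28 and 5.03. P4hb exceeded P4ha1 by 3.61 ± 0.23 (12.2-fold), and its per kb level was 8.20, 9.68, 6.50 and 8.21 times the sum of the 3 alpha genes. P4ha1 took 66.2% ± 2.81 of the alpha subunit total per kb, P4ha2 26.7% ± 3.84 and P4ha3 7.09% ± 1.74, and P4ha1 exceeded P4ha3 by 3.26 ± 0.37 (9.57-fold). With the longest transcript as the length, P4ha1 and P4ha2 took 51.5% and 41.5%, in the same order with a narrower gap. As deposited P4ha2 had the smallest spread of the 3 (SD 0.07), but on median-ratio size factors, a scaling that aligns the libraries on the median gene, P4ha1 did (SD 0.12, and 0.22 for P4ha2). On the deposited scale P4ha1 and P4ha3 were highest in library 1, as were 53.6% of all detected genes.

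The lysyl hydroxylase total was carried by Plod3, which also adds sugars to hydroxylysine, with 70.3% ± 8.41 of the total per kb, and Plod1 held 10.1% ± 2.82. Plod3 had levels of 9.64, 9.77, 9.18 and 9.21, Plod1 of 7.35, 7.03, 7.01 and 7.41, and Plod1 lay 2.83 ± 0.39 below Plod3 per kb (7.11-fold). Plod2, the enzyme for the telopeptide lysines that set the type of collagen cross-link (chromosome 9, 92542223 to 92608428), had levels of 9.10, 7.63, 7.11 and 7.21. Library 1 stood above the others, and the Plod2 share was 33.7% there and 14.8%, 14.8% and 14.9% in libraries 2 to 4. Plod2 exceeded Plod1 in each library, but by 2.07, 0.93, 0.43 and 0.12. The spread of Plod2 remained above 0.5 after rescaling all libraries by median-ratio size factors (SD 0.92 as deposited, 0.68 rescaled).

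Among the prolyl 3-hydroxylases, Leprel2 took 75.2% ± 6.76 of the total per kb, Lepre1 24.3% ± 6.83 and Leprel1 0.495% ± 0.345. Lepre1, which acts in a complex with Crtap on fibrillar collagens, had levels of 8.18, 7.80, 7.20 and 7.82. Crtap had levels of 8.28, 7.89, 7.60 and 7.91 and lay 1.29 ± 0.16 above Lepre1 per kb (2.45-fold). Both partners were highest in library 1 (53.6% of all detected genes were) and lowest in library 3 (52.9% of all). On median-ratio size factors both were highest in library 4. Leprel2, with levels of 9.33, 9.28, 9.70 and 9.50, was highest in library 3 and lowest in library 2. Leprel1 had levels of 1.41, 1.00, 2.03 and 3.19, from 77, 58, 90 and 268 reads, and lay 5.79 ± 1.11 below Lepre1 per kb (55.4-fold). It was highest in library 4 and overlaps the gene model Gm4524, which had a mean level of 1.26.

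**Figure D3:**
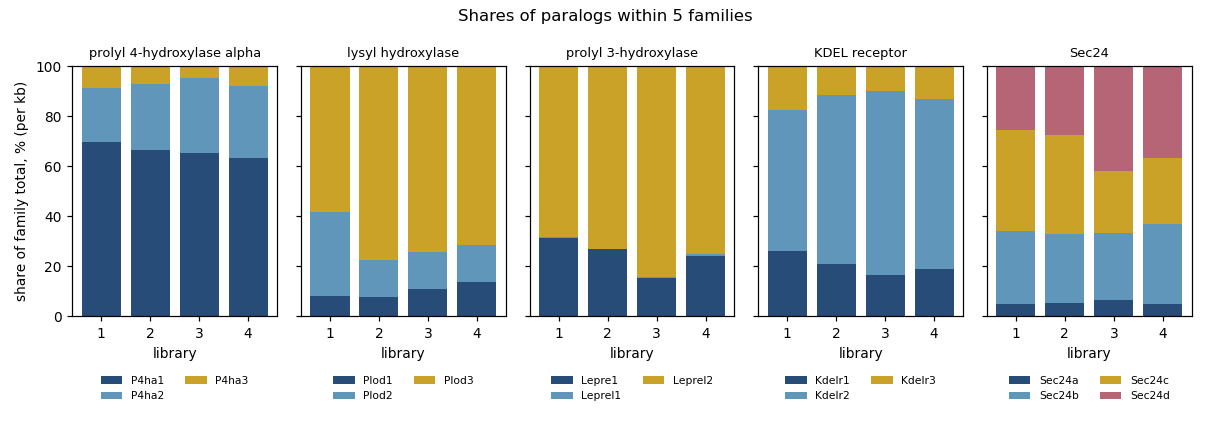
Share of each paralog in the summed level per kb of its family (%, y axis) in libraries 1 to 4 (bars) for 5 families. The Plod2 share is 33.7% in library 1 and near 15% in the others, and Sec24c and Sec24d exchange order between libraries 1 and 2 and libraries 3 and 4.

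Fkbp10, a prolyl isomerase and collagen chaperone, was 9.19 per kb with levels of 10.58, 10.80, 10.75 and 10.86. It exceeded Fkbp14, the lowest of the 5 Fkbp genes at 4.84 per kb, by 4.36 ± 0.51 (20.5-fold), and Fkbp9 exceeded Fkbp7 by 3.48 ± 0.19 (11.2-fold). Fkbp10 overlaps Nt5c3l, which had a mean level of 8.82. Fkbp11 passed the limit for a variable gene narrowly, with levels of 6.86, 6.97, 5.91 and 6.27. Pcolce, the secreted enhancer of procollagen C-proteinase, differed little between libraries, at 9.73, 9.74, 9.59 and 9.55.

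Within the COPII coat the small GTPase gene Sar1a was highest at 7.73 per kb and took 69.0% ± 3.27 of the Sar1 total. Sec31a, an outer cage subunit, exceeded Sec31b by 6.40 ± 0.32 (84.4-fold), and Sec16a, the scaffold of ER exit sites, exceeded Sec16b by 2.72 ± 0.36 (6.57-fold). Sec31b overlaps the gene model Gm20538 (mean level 3.79), and Sec24a lay 2.46 ± 0.26 below Sec24b (5.51-fold). Sec23a and Sec23b did not differ beyond the spread of libraries (-0.24 ± 0.47, sign-flip permutation p = 0.375, adjusted 0.401). Sec23a was the higher of these in library 1 only, and per kb of the longest transcript the mean difference was -1.02.

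The cargo-binding subunits Sec24c and Sec24d had the same mean (difference 0.00 ± 0.70, sign-flip permutation p = 1), but their order changed between libraries (Sec24d overlaps Mettl14, mean level 4.54). Sec24c had levels of 6.72, 6.02, 5.02 and 5.47, and Sec24d of 6.07, 5.49, 5.76 and 5.92. Sec24c took 40.4% and 39.6% of the Sec24 total per kb in libraries 1 and 2, and 25.03% and 26.8% in libraries 3 and 4, and Sec24d took 25.6%, 27.3%, 41.8% and 36.5%. Sec16a had levels of 7.30, 6.25, 5.74 and 6.27, and Sec16b of 3.98, 2.46, 1.98 and 3.22. Sec31b had levels of 2.14, 1.52, 0.67 and 1.33. All 3 were highest in library 1 (53.6% of all detected genes were) and lowest in library 3 (52.9% of all). Of the COPII and ER exit genes 7 of 14 were variable (SD above 0.5), beside 40.5% of all detected genes. On median-ratio size factors 1 of 14 was (Sec16b), beside 30.7% of all detected genes. Besides Sec16a, Sec16b, Sec24c and Sec31b, the 7 included Sec13, Sec23a and Sec23ip (SD 0.56, 0.55 and 0.53).

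The COPI coat lay 2.91 ± 0.21 above COPII and ER exit genes by the medians of the lists (7.52-fold, higher in 4 of 4 libraries). The lists are unlike. The COPII list holds several paralogs for the same subunit, with Sec31b, Sec16b and Sec24a at -0.57, 0.47 and 0.54 per kb. The COPI list holds the low paralog Copg2 but not the subunit gene Arcn1. The difference is thus one between lists chosen by name, and other lists were not tried. Copz1 was the highest COPI gene at 7.32 per kb and differed little from Copz2 (0.07 ± 0.31, sign-flip permutation p = 0.75, adjusted 0.775). Copg exceeded Copg2, the lowest at 3.24 per kb, by 2.58 ± 0.22 (5.97-fold), and Copb2 exceeded Copb1 by 2.13 ± 0.19 (4.37-fold). Coat subunits are thought to assemble in equal numbers, and the 7 main subunit genes, with Arcn1 from outside the name rule, spanned 23.7-fold per kb. Arcn1 was the lowest of these at 2.75 per kb, with an exon length of 14915 bases. The next lowest was Copb1 at 4.44 per kb, so much of the span rests on Arcn1.

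Of the KDEL receptors, which return ER proteins that carry that retrieval signal, Kdelr2 took 66.4% ± 7.31 of the total per kb, Kdelr1 20.6% ± 4.11 and Kdelr3 12.95% ± 3.35. Kdelr2 exceeded Kdelr3 by 2.38 ± 0.52 (5.22-fold) and had levels of 8.98, 9.44, 9.99 and 9.78. Library 1 was its lowest and library 3 its highest, the reverse of most of these genes. Kdelr3 overlaps Ddx17, which had a mean level of 8.59. Tmed3 was the highest p24 cargo receptor at 8.64 per kb and Tmed8 the lowest detected at 1.51, and the core members Tmed10 and Tmed2 differed by -0.41 ± 0.24, a direction that turned with the longest transcript as the length (0.17). Tmed5 (SD 0.50) and Tmed8 (SD 0.55) were variable. Of the Sec22 genes, the ER-Golgi SNARE Sec22b was 4.92 per kb, 2.64 ± 0.15 above Sec22a (6.24-fold), and Sec22c was 2.06.

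The spread between libraries was smaller than in the table as a whole. Genes with an SD over 0.5 between the 4 libraries are termed variable, and 18 of the 72 genes were (25%), compared with 40.5% of all detected genes. Genes with higher levels vary less here (Spearman rho between level and SD of -0.40 across the 72 genes and -0.37 across all detected genes, as a description across genes of the same libraries). Between the quartiles of level of these genes (6.33 to 8.91), 8 of 36 were variable, and 22.2% of all detected genes in that range, the same share. The 18 were Plod2, P4ha3, Leprel1, Canx, Pdia4, Pdia5, Fkbp11, Sec62, Tmed5, Tmed8, Copg2 and 7 COPII genes. The largest SD that read sampling alone would give was 0.18, for Sec31b. The count rested on single libraries, with 6 variable genes when library 1 was left out and 8 when library 3 was.

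On median-ratio size factors 5 of the 72 genes were variable (6.94%), against 30.7% of all detected genes. Between the quartiles of level the counts were 2 of 36, against 23.7%. The 5 were Leprel1 (SD 1.13), Kdelr2 (0.71), Sec16b (0.69), Plod2 (0.68) and Sec61g (0.53), so Kdelr2 and Sec61g entered and 15 others dropped out.

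**Figure D4:**
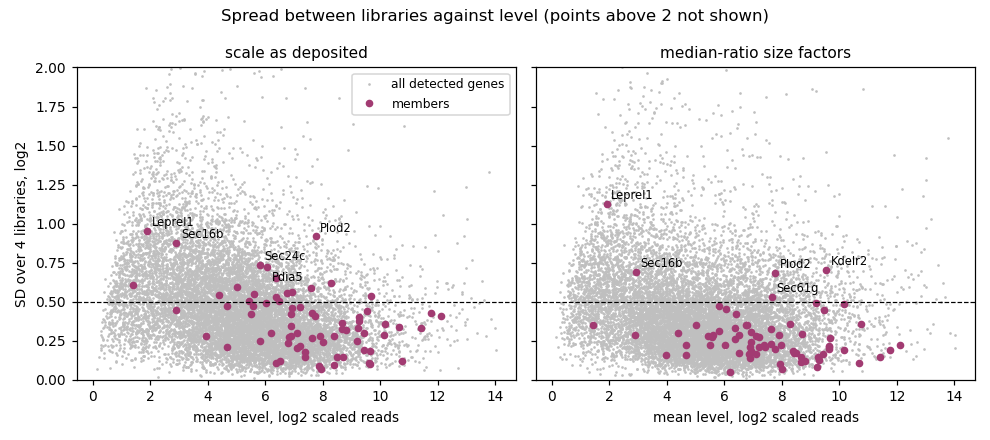
SD over 4 libraries (log2, y axis) against mean level (log2 scaled reads, x axis) for all detected genes (grey) and the 72 genes described here (purple), as deposited and on median-ratio size factors; the dashed line is the limit of 0.5 and points above 2 are not shown. Of the 72 genes, 18 lie above the line on the left and 5 on the right.

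Most genes of the machinery were highest in library 1 (43 of 72) and lowest in library 3 (57 of 72), where all detected genes had 53.6% and 52.9%. Their median deviation from the gene mean was 0.37, 0.06, -0.37 and -0.07 in libraries 1 to 4, close to that of all detected genes (0.32, 0.11, -0.28 and -0.10). After median-ratio scaling it was 0.05, -0.04, -0.08 and 0.05, and that scaling moved the libraries by -0.32, -0.10, 0.30 and 0.12. On that scale 30 of 72 were highest in library 1 (31.01% of all detected genes) and 26 lowest in library 3 (28.7% of all), while 23 were lowest in library 1 (34.4% of all).

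As deposited, the median difference between library 1 and library 3 was 0.70 (0.62 over all genes), and 8 of 72 were lower in library 1 (11.1%, against 24.8% of all). On median-ratio size factors 30 of 72 were lower in library 1 (41.7%, against 49.8% of all). The 8 on the deposited scale were Kdelr2 (-1.01), Leprel1 (-0.63), Sec61g (-0.61), Tmed3 (-0.54), Copz1 (-0.51), Leprel2 (-0.37), Sec11c (-0.18) and Fkbp10 (-0.17). Longer genes had larger differences (Spearman rho between exon length and this difference of 0.28 over the 72 genes and 0.34 over 12100 genes, a description across genes). Marker genes moved between the same libraries: the summed linear level of the 6 smooth muscle markers was 7912, 3623, 11532 and 16266 in libraries 1 to 4, that of the 6 fibroblast markers 777, 611, 83.6 and 59.4, that of 5 endothelial markers 46.6, 29.96, 43.0 and 15.96, and that of 6 leukocyte markers 3.36, 2.38, 2.11 and 1.25. The part of these markers, of depth, of exon length and of the mitochondrial share in the differences between libraries was not tested.

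**Figure D5:**
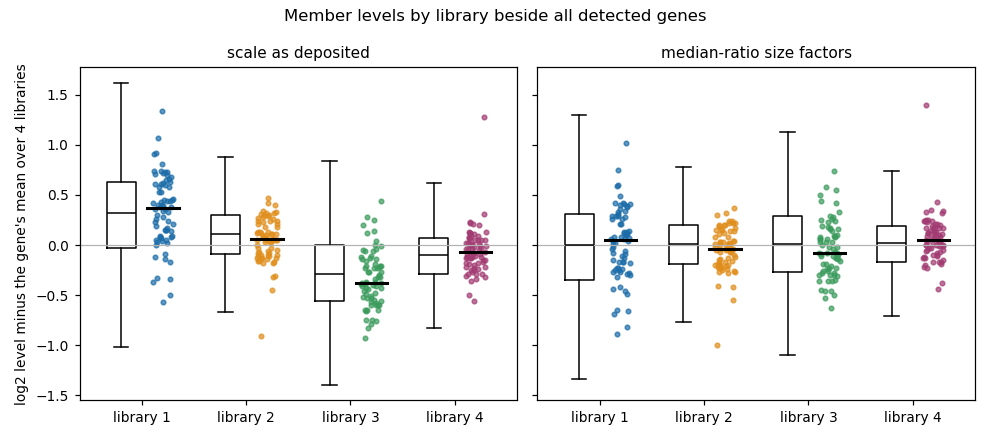
Level minus the gene's mean over 4 libraries (log2, y axis) for the 72 genes (points, bar at their median) beside all detected genes (boxes from quartile to quartile with the median, whiskers to 1.5 times the box, genes beyond them not drawn), as deposited and on median-ratio size factors. As deposited the points sit above 0 in library 1 (median 0.37) and below it in library 3 (-0.37), and on the other scale all 4 medians lie within 0.08 of 0.

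Other genes of the pathway, from lists outside the name rule, were nearly all detected (47.4% of all genes were). Of the signal recognition particle and its receptor 9 of 10 were (Srp54c without reads), of the oligosaccharyltransferase subunits 9 of 9, of the signal peptidase partners 3 of 3 and of other ER chaperones and oxidoreductases 14 of 14. Highest per kb in these lists were Srp14 (7.58), the glycosylation subunit gene Ddost (8.75), Spcs1 (6.49) and the chaperone Hsp90b1 (9.02). Srp14, Stt3a, Stt3b, Hsp90b1, Dnajb9, Dnajc3 and Sdf2l1 were variable as deposited, and of these only Sdf2l1 on median-ratio size factors. Of all detected genes 40.5% were variable as deposited and 30.7% on median-ratio size factors. Hsp90b1 had levels of 11.75, 11.51, 10.15 and 10.71, the same order as Pdia4 and Pdia5. The median deviation of all detected genes also had this order. Hspa5, the main ER chaperone BiP, was not variable (10.44 ± 0.37).

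All 10 genes of the unfolded protein response list were detected, and 5 were variable, Atf6, Ern1, Eif2ak3, Creb3l1 and Creb3l2, near the 40.5% of all detected genes. On median-ratio size factors 3 were, Atf6b, Creb3l1 and Creb3l2, near the 30.7% of all detected genes. Atf4 was highest at 7.40 per kb, and Xbp1 had a level of 6.82 ± 0.30. Creb3l1, a factor known to activate collagen secretion genes, had levels of 6.54, 5.71, 7.81 and 7.81. It was higher in libraries 3 and 4 than in 1 and 2. Of further COPII genes 10 of 10 were detected with Mcfd2, Ctage5 and Rab1 variable, of COPI genes 6 of 6 with Arf1 and Gbf1 variable, and of ER-Golgi SNAREs 9 of 9 with Use1 variable. On median-ratio size factors Tfg, Mcfd2, Arfgap1, Gbf1 and Use1 were variable in these lists. The highest per kb were the cargo receptor gene Surf4 (8.15), Arf1 (7.45) and Use1 (8.34).

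Of 17 further genes for collagen processing and cross-linking, 14 were detected (47.4% of all genes in the table were), and Glt25d2, Tll2 and Adamts3 were not. Serpinh1, the collagen-specific chaperone, was highest at 9.86 per kb (level 11.15 ± 0.42), and Bmp1, the procollagen C-proteinase that Pcolce enhances, had a level of 8.80 ± 0.40. Tll1, Adamts2, Pcolce2, Lox and Loxl2 were variable, 5 of 14 beside 40.5% of all detected genes. All but Adamts2 were so on median-ratio size factors, beside 30.7% of all detected genes. Tll1, a relative of Bmp1, had levels of 7.45, 7.55, 3.69 and 4.77, and Pcolce2, the relative of Pcolce, of 6.42, 6.06, 4.20 and 4.91. Both were higher in libraries 1 and 2 than in 3 and 4, as were the 6 fibroblast markers, whose part was not tested. The median deviation of all detected genes was also higher in libraries 1 and 2 (0.32 and 0.11) than in 3 and 4 (-0.28 and -0.10). The 8 fibrillar collagen genes examined (3 of type V, 2 of type I and Col2a1, Col3a1 and Col11a1) were detected, with Col1a1 highest at 11.30 per kb. Col1a2, Col2a1, Col3a1 and Col5a3 were variable as deposited, beside 40.5% of all detected genes. On median-ratio size factors Col2a1, Col5a3 and Col11a1 were, beside 30.7% of all detected genes.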

How the data were processed

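RNA-seq of 4 libraries of cultured aortic cells was used, made with a stranded mRNA kit, per the labels' protocols. The submitters' processing notes name TopHat, cutadapt, Trim Galore and the build GRCm38. How reads were assigned to genes, and whether strand was used, is not given in the sources used here. The authors deposited log2 values per gene in 1 table. Each value proved to be the log2 of whole reads times a library constant, not divided by length, with a floor of 0.9 read for genes without reads. Dividing by the value of 1 read (0.0344, 0.0346, 0.0455 and 0.0340) gave whole reads within 0.05 for 99.9%, 99.9%, 99.9% and 99.8% of values. What was counted as a read is not stated, and intervals and floors cover counting error only.

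The table's 4 sample columns are numbered in accession order, as a name only. Exon-union lengths came from GENCODE M21 (GRCm38), for 74 of 74 genes, of which 46 had the deposited start and end. Coordinates of genes are those of the deposited table, and promoter sequences are from RefSeq. The genes and lists were chosen with earlier results of these data known, so their patterns are not independent evidence. Named were, in each role, the highest and lowest detected gene per kb, each variable or undetected gene, the contrasts with 1 sign and a size above 2, the smallest contrasts and those without 1 sign, in each further list the highest, variable and undetected genes, and Serpinh1, Hspa5, Bmp1 and Xbp1. Values in each library were given for the 10 genes with the largest SD and the collagen hydroxylases. Other genes named with values were chosen after their values were seen. No count model was fitted, since there are no groups. Contrasts were tested over 16 sign arrangements. Alternatives were detection at -1 or 1, an SD above 1, median-ratio size factors, other lengths, and leaving out each library; list means, the longest transcript for shares and medians, and the restriction to a level range were added after seeing the data. Software was matplotlib 3.10.9, pandas 2.3.3, scipy 1.17.1 and numpy 2.4.6 under Python 3.11.15.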

Additional observations from a re-analysis of the deposited data

Results flagged for a closer look

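Of the 72 detected genes, 3 had a library far from the other 3 (the gap to the nearest, divided by the range, was above Dixon's 95% critical value), and chance flags about 1 in 20 genes. Copz1, a COPI subunit gene, was 8.83 in library 1 and between 9.30 and 9.34 in the others. Sec24a, a COPII cargo-binding subunit gene, was 4.37 in library 1 and between 3.79 and 3.83 in the others. Ssr2, a translocon-associated gene, was 7.14 in library 3 and between 7.46 and 7.52 in the others. These flags are on the deposited scale. On median-ratio size factors Copz1 was 8.51, 9.21, 9.63 and 9.44 in libraries 1 to 4. There Sec24a was 4.05, 3.73, 4.09 and 3.94, and Ssr2 was 7.14, 7.40, 7.44 and 7.64. On that scale library 1 was not the highest for Sec24a, and library 3 was not the lowest for Ssr2.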

How the results depend on the processing

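The number of detected genes stayed at 71 or 72 under every alternative that was run, and the COPI minus COPII difference between 2.30 and 3.01. The count of 18 variable genes became 0 with an SD above 1 and 5 with median-ratio size factors, and leaving out a library gave between 6 (without library 1) and 27 (without library 4). The median deviation in library 1 was 0.0498 with median-ratio size factors. Of 210 recomputed contrast values 201 kept their direction and 9 reversed. Where a contrast had the same sign in every library, leaving out a library could not reverse it. Many of the 201 were thus fixed in advance and do not measure stability. Sec62 minus Sec63 was -0.0092 without division by length, where Tmed10 minus Tmed2 was 0.79 and Sec24d minus Sec24c 0.0040. With the longest transcript Tmed10 minus Tmed2 was 0.17, Sec24d minus Sec24c 0.197 and Copz1 minus Copz2 -0.42. Leaving out a library gave -0.25 to 0.22 for Sec24d minus Sec24c and -0.0199 to 0.22 for Copz1 minus Copz2. Of 120 recomputed paralog shares 12, and of 77 role medians 17, moved by more than 1 SD. Most of these recomputed values could not move that far. Leaving out 1 of 4 libraries cannot shift a mean by 1 SD, and median-ratio scaling leaves the role medians, as means over libraries, unchanged. All 12 shares that moved did so with the longest transcript as the length. Every role median moved with that length, and the others of the 17 moved with list means. Beyond the setting that was changed, the cause of these changes was not tested. No paired analysis was possible because there is no other group to pair the libraries with; differences between genes were taken within each library. Differences between genes depend on the exon length used, and 4 libraries are too few for any contrast to pass 0.05.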
